A study of Mus musculus with 18 samples.

Results

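The proteasome degrades most short-lived and damaged proteins of a cell, and here the mRNAs of its subunits, assembly factors, activators and inhibitor were followed in 2 tissues of obese mice given prednisone, a synthetic glucocorticoid. Symbols that begin with Psma, Psmb, Psmc, Psmd, Psme, Psmf or Psmg and a digit were taken, which gave 54 symbols. Of these, 4 pseudogene names were left out, and 2 genes, the testis form Psma8 and the thymus form Psmb11, did not reach 1 TPM in 3 or more of a tissue's libraries, the filter used here. The remaining 48 genes, of 14659 genes that passed the filter in a tissue and 33641 in the table, are called members below. All 48 passed in adipose tissue and 47 passed in muscle. One of them, Psmc3ip, matched by its name only: it encodes a meiotic recombination factor and is no part of the proteasome.

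The mice were male wild-type DBA/2J animals of about 20 weeks of age that had eaten a high-fat diet for 12 weeks, and the diet went on during a further 12 weeks of treatment. Daily injections of vehicle, prednisone once a week and prednisone once a day were given to separate groups. Prednisone was injected into the peritoneum at 1 mg per kg from a stock in DMSO. Quadriceps muscle and white adipose tissue were taken from each mouse 24 hours after the last injection, so that 9 mice gave 18 libraries, 3 for each regimen in each tissue. The design text names 2 daily adipose samples, whereas the labels and the table hold 3, and all 3 were used. No library came from lean or uninjected mice.

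As background, the 20S core of the proteasome is a barrel of alpha and beta rings, and 3 of its beta subunits (Psmb5, Psmb6 and Psmb7) cut proteins. The 19S cap binds ubiquitin-tagged proteins, removes the tag and unfolds them with a ring of ATPases. Cells exposed to interferon replace the cutting subunits with Psmb8, Psmb9 and Psmb10, which form the immunoproteasome, and other caps (PA28, from Psme1, Psme2 and Psme3, and PA200, from Psme4) can take the place of the 19S cap. In muscle, glucocorticoids are known to raise ubiquitin ligases such as Trim63 that send proteins of the fibre to the proteasome. The factor Nfe2l1 is known to raise the genes of many subunits together when proteasome activity is short.

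The values are TPM, transcript abundances scaled to transcript length and to one fixed total per library, so that levels can be compared between genes. TPM keeps no record of how many reads a library had, and that depth is unknown here. Each library had between 11781 and 14076 genes at 1 TPM or more, and the share of mitochondrial transcripts was 27.5% to 31.3% in the muscle libraries and 12.9% to 16.9% in the adipose ones. The summed level of 10 muscle fibre markers was 103166 to 120279 TPM in muscle, and that of 10 adipocyte markers was 36843 to 40961 TPM in adipose tissue, as the labels state. In adipose tissue the fibre markers summed to 151 to 246 TPM in 6 libraries and to 1453 TPM in weekly library 2, 1066 TPM in weekly library 3 and 932 TPM in daily library 2. In every group the third library held the middle of the 3 values more often than either other library, for 40.95% to 52.34% of all genes and 40.43% to 58.33% of the members. Results are therefore also given without those libraries. Members were tested with limma on log2(TPM + 1), with Benjamini-Hochberg adjustment over all genes of the tissue, and a gene is said to have changed at an adjusted p under 0.05. A fold change on this scale understates the change of low genes.

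In vehicle mice the mean levels of the 31 constitutive ring and 19S subunits ran from 44.3 to 262.0 TPM in muscle and from 47.2 to 261.0 TPM in adipose tissue. The other 17 members (chaperones, immunoproteasome, activators, inhibitor and Psmc3ip) ran from 0.749 to 51.3 TPM and from 2.6 to 247.0 TPM. The summed level of the members was 3831 to 3893 TPM in muscle and 5086 to 5157 TPM in adipose tissue, or 0.383% to 0.389% and 0.509% to 0.516% of all TPM. Over all 9 libraries of a tissue, the 7 alpha ring genes summed to 719 to 794 TPM in muscle and 913 to 1147 TPM in adipose tissue. The 3 constitutive cutting subunits summed to 506 to 604 TPM in muscle and 437 to 510 TPM in adipose tissue. The 6 ATPases of the 19S base summed to 511 to 572 TPM in muscle and 571 to 619 TPM in adipose tissue, and the 8 lid genes to 659 to 725 TPM and 742 to 824 TPM. The assembly chaperones were far lower than the subunits they help to join. The 4 chaperones of the 20S core (Psmg1 to Psmg4) summed to 72.3 to 83.5 TPM in muscle, and the 3 of the 19S base (Psmd5, Psmd9 and Psmd10) to 25.9 to 31.4 TPM.

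**Figure D1:**
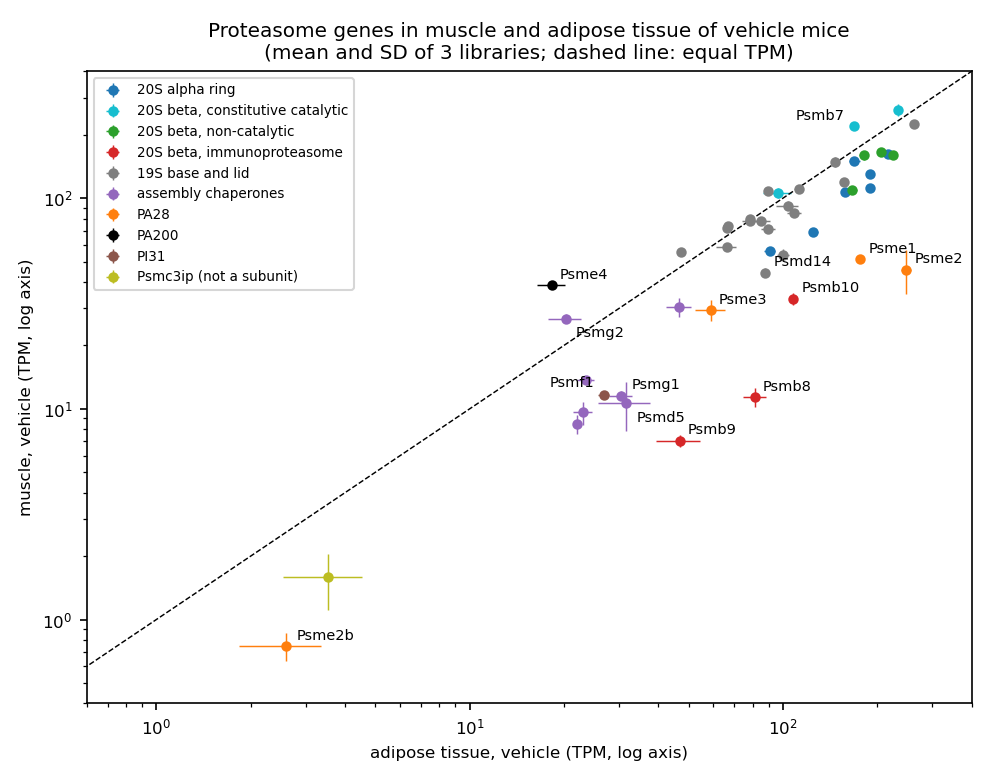
Mean TPM of the 48 members in vehicle muscle (vertical, log axis) against vehicle adipose tissue (horizontal, log axis); bars are SDs of 3 libraries and colours give the role. Most subunits lie near or below the line of equal TPM, Psme4 lies above it, and Psmb8, Psmb9 and Psme2 lie furthest to its right.

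Between the tissues of vehicle mice, the immunoproteasome genes and the PA28 genes Psme1 and Psme2 were lower in muscle, as were several chaperones and the inhibitor, and PA200 was higher. The test used the muscle minus adipose difference within each mouse, over 11737 genes. In it, 6 of 47 members were higher in muscle (12.8%, beside 13.0% of all genes) and 31 were lower (66.0%, beside 73.7%). Both shares were near the background. Most genes had a lower TPM in muscle, with a median log2 difference of -0.88 over all genes and -0.41 over the members. Scaling both tissues to one trimmed mean of M-values (TMM) brought the median of all genes to 0.01 and that of the members to 0.60, and 32 members were then higher in muscle and 9 lower, beside 38.2% and 38.1% of all genes. The direction of many subunits between tissues turned with the scale: 16 members had opposite calls under the 2 scalings. The 15 members with the same call under both, 6 higher and 9 lower in muscle, are described next. In bulk tissue, fewer cells of a type and less RNA per cell cannot be told apart.

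Psmb8, the interferon-inducible replacement of Psmb5, had 10.1, 12.5 and 11.6 TPM in vehicle muscle and 88.8, 75.3 and 79.7 TPM in vehicle adipose tissue. Its mean was 7.13-fold higher in adipose tissue, with a log2 difference of -2.73 (SE 0.11, adjusted p = 3.32e-09), and the tissues did not overlap. Psmb9, which replaces Psmb6, had 6.98, 7.58 and 6.63 TPM in muscle and 54.4, 39.4 and 46.5 TPM in adipose tissue (6.62-fold, log2 difference -2.56, SE 0.15). Both genes lie close together in the major histocompatibility region, Psmb9 at chr17:34181987-34187764 and Psmb8 at chr17:34197721-34201454 (GRCm38). Psmb10, which replaces Psmb7, had 35.3, 33.8 and 31.1 TPM in muscle and 110.1, 104.7 and 109.2 TPM in adipose tissue (3.23-fold, log2 difference -1.67, SE 0.11). Only part of the Psmb10 signal came from its coding transcript: transcripts annotated as protein coding held 17.8% to 32.03% of its signal in the muscle libraries and 27.02% to 43.93% in the adipose ones. Counted from coding transcripts alone, its log2 difference was -2.35 (SE 0.14).

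The activator PA28 followed the same direction. Psme2, its beta subunit, had 58.1, 38.4 and 40.8 TPM in vehicle muscle and 243.1, 240.0 and 258.0 TPM in vehicle adipose tissue (5.4-fold, log2 difference -2.43, SE 0.11). Psme1, its alpha subunit, had 50.1, 53.3 and 50.5 TPM in muscle and 181.9, 174.7 and 172.3 TPM in adipose tissue (3.44-fold, log2 difference -1.76, SE 0.07). Psme1 and Psme2 are interferon-inducible and also lie close together, at chr14:55578123-55581529 and chr14:55587441-55591113. Psme3, the nuclear form that is not interferon-inducible, had 32.5, 25.8 and 29.7 TPM in muscle and 51.8, 64.8 and 59.7 TPM in adipose tissue. Its log2 difference of -0.98 (SE 0.10) turned to 0.02 under TMM over both tissues. Psme2b, a retrocopy of Psme2 whose reads cannot be told safely from those of Psme2, stayed at 0.14 to 0.88 TPM in muscle and reached 0.94 to 6.73 TPM in adipose tissue. It was the member that passed the filter in adipose tissue only, and Psmc3ip, at 1.07 to 2.38 TPM in muscle, was just inside it there.

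Groups of genes known to respond with the immunoproteasome to interferon, and markers of immune cells, moved in the same direction between tissues. On this scale 73.7% of all genes were lower in muscle, with a median log2 difference of -0.88. All 11 genes of MHC class I presentation were lower in vehicle muscle, with a median log2 difference of -2.51, as were all 20 interferon response genes tested, a list that holds Psmb8 and Psmb9, with a median of -2.03. All 12 macrophage markers were lower in muscle too, and their summed level was 249 to 364 TPM in vehicle muscle against 2238 to 3025 TPM in vehicle adipose tissue. The 12 lymphocyte markers summed to 1.66 to 2.31 TPM in vehicle muscle, where at most 2 of the 12 were at 0 in a library and none passed the filter, and to 24.4 to 32.96 TPM in vehicle adipose tissue. The part of these cells in the higher immunoproteasome level of adipose tissue was not tested.

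Further members that were lower in muscle under both scalings were chaperones and the inhibitor. Psmd5, a chaperone of the 19S base, had 13.9, 9.38 and 8.72 TPM in muscle and 34.2, 24.8 and 36.0 TPM in adipose tissue (2.97-fold). Psmg1, a chaperone of the alpha ring, was 2.63-fold and Psmd10, a chaperone of the base known as gankyrin, 2.61-fold higher in adipose tissue. Psmf1, which encodes the inhibitor PI31, had 12.0, 11.7 and 11.3 TPM in muscle and 25.5, 27.8 and 26.9 TPM in adipose tissue (2.3-fold).

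Psme4, whose product PA200 caps the core without using ATP, was the member with the largest difference in the other direction. It had 38.0, 40.3 and 38.1 TPM in vehicle muscle and 16.2, 19.8 and 18.8 TPM in vehicle adipose tissue, a 2.13-fold higher mean in muscle (log2 difference 1.05, SE 0.07, adjusted p = 1.52e-07). The other 5 members that were higher in muscle under both scalings differed by far less. Psmg2, the partner of Psmg1 in one chaperone, was 1.32-fold higher in muscle, so that the 2 partners went opposite ways. Psmb7 was 1.3-fold, Psmd7 1.2-fold, Psmd11 1.18-fold and Psmb6 1.13-fold higher. Psmd7 and Psmd11 encode subunits of the 19S lid, and Psmd14, the lid enzyme that cuts ubiquitin off, was lower in muscle as TPM (42.1, 46.4 and 44.3 against 86.0, 86.4 and 90.2 TPM) and had a log2 difference of 0.04 under TMM over both tissues. Psmc4, an ATPase of the base, had log2 differences of -0.33 as TPM and 0.68 under that TMM scaling.

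In muscle, daily prednisone was followed by small falls in 10 of the 47 members and by no rise. In the 20S core they were the cutting subunit Psmb5 and the beta ring subunits Psmb2 and Psmb4. In the 19S base they were Psmd1, Psmd2 and Psmd4, all 3 members with a scaffold or receptor role there, and the ATPase Psmc4. The lid subunit Psmd3, the activator Psme4 and the inhibitor Psmf1 completed the 10. These 10 genes made up 21.3% of the members, beside 11.8% of the 12246 genes tested in muscle that were lower and 1.91% that were higher. No alpha ring gene, no immunoproteasome gene, no PA28 gene and no assembly chaperone passed the test, although with the replicate number as a block Psme3 passed (adjusted p = 0.0401) and Psmc4 did not (0.0609). The members' log2 fold changes ran from -0.39 to 0.14, with 38 of 47 below 0. Their median was -0.12, beside -0.09 over all genes, and under TMM scaling the medians were -0.02 and -0.00. All 3 daily libraries lay below all 3 vehicle libraries for 20 members (42.6%, beside 27.8% of all genes), and above them for 0 members (beside 6.02%).

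**Figure D2:**
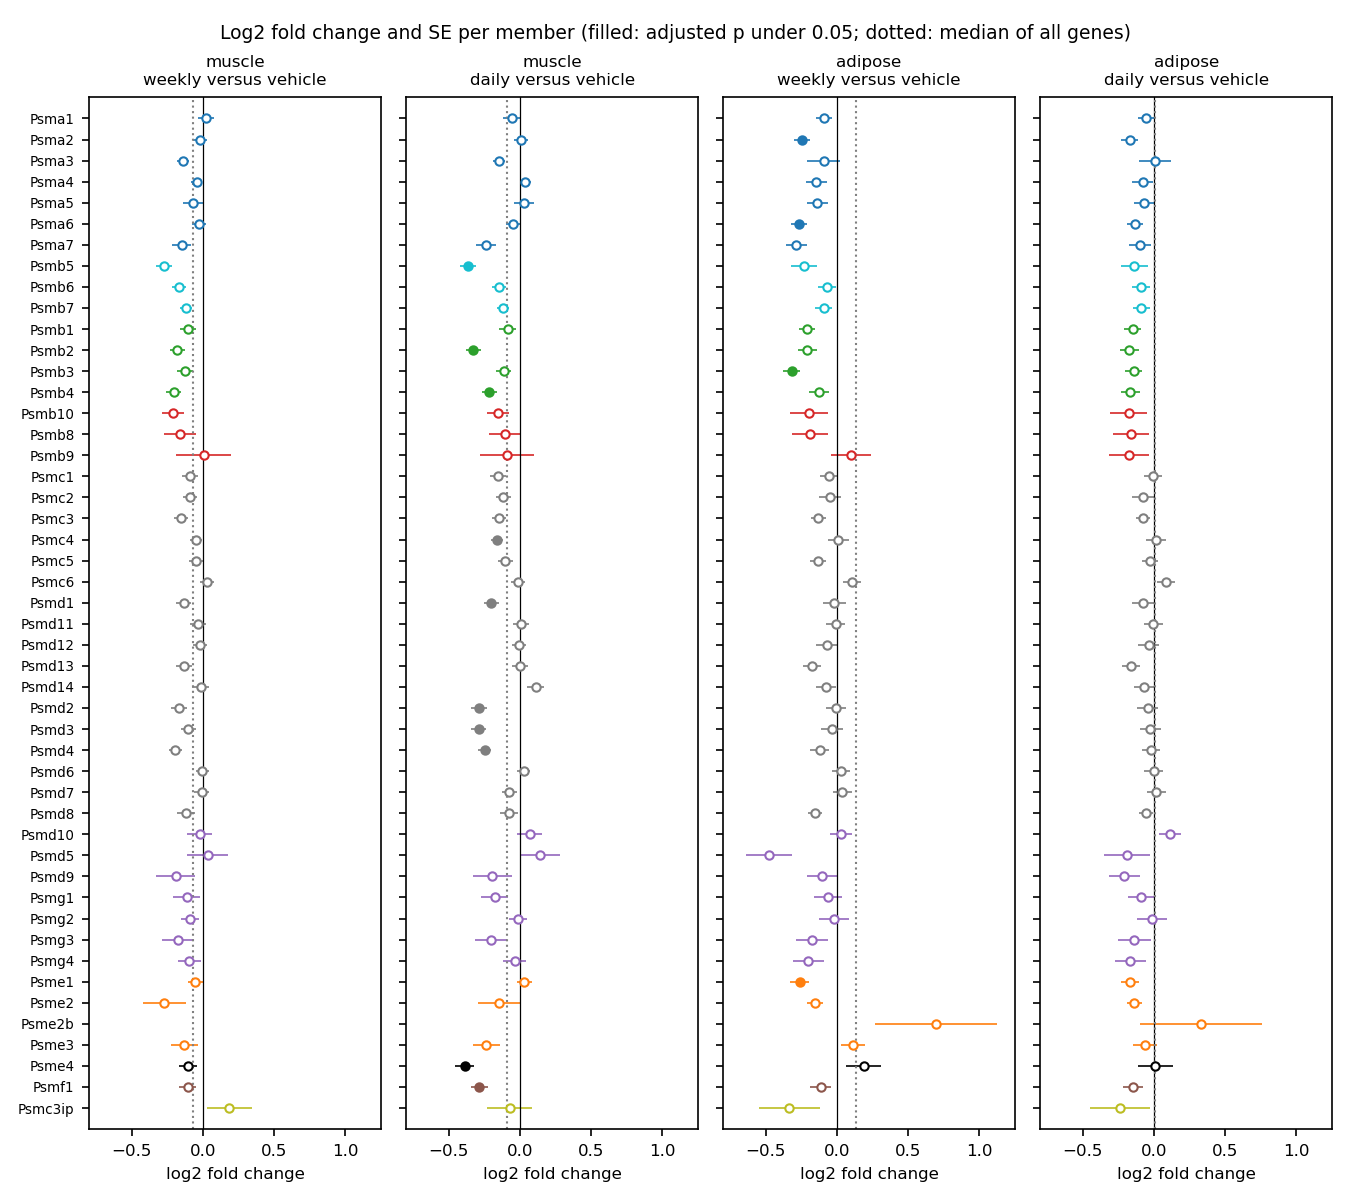
Log2 fold change (points) and SE (bars) of each member against vehicle, in muscle and adipose tissue after weekly and daily prednisone; filled points have an adjusted p under 0.05 and the dotted line is the median of all genes. Filled points appear for 10 members in daily muscle and 4 in weekly adipose tissue, all to the left of 0.

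Psmb5, the subunit with chymotrypsin-like activity, had 109.4, 108.3 and 99.1 TPM in the vehicle libraries and 83.4, 81.7 and 79.5 TPM in the daily libraries, with no overlap. It fell by 0.37 on the log2 scale (SE 0.06, adjusted p = 0.00545). The weekly libraries, at 88.2, 90.8 and 82.2 TPM, lay below all vehicle libraries, and the lowest of them lay within the daily range. The gene lies at chr14:54614119-54618022 on the minus strand (GRCm38, GENCODE annotation). Neither of the other cutting subunits passed the test: Psmb6, the caspase-like subunit, had 273.7, 269.5 and 244.0 TPM with vehicle and 241.3, 232.9 and 234.0 TPM with daily prednisone (log2 fold change -0.15, adjusted p = 0.0793). It passed without vehicle library 3 (-0.20, adjusted p = 0.0301) and over protein-coding transcripts alone (-0.17, adjusted p = 0.0480). Psmb7, the trypsin-like subunit, had a log2 fold change of -0.12.

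The promoters of Psmb5 and Psmb6 are shown because both hold a match to the antioxidant response element, which Nfe2l1 and its relative Nfe2l2 bind. The letters are those of the RefSeq promoter table (GRCm38.p6, from the C57BL/6J strain, not the DBA/2J strain of these mice), printed up to the most upstream annotated start of the gene, with the match TGACNNNGC in capitals. In Psmb5 (chr14:54618023-54618245, minus strand) the match begins 47 bases before the RefSeq start, which lies 27 bases past the end of the printed stretch, and in Psmb6 (chr11:70525107-70525356, plus strand) 9 bases before it.
Psmb5: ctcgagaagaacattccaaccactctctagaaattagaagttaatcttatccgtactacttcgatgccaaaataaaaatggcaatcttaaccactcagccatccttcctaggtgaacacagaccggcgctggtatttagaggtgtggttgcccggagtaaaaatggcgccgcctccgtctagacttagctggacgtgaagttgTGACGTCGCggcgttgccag
Psmb6: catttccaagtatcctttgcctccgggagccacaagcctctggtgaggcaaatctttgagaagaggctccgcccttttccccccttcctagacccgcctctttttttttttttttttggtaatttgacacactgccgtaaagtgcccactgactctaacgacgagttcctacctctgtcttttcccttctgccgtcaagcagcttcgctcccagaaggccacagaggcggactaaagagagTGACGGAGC
Of the 48 members, 41 had a promoter in the table. TGACNNNGC on either strand was found within 250 bases upstream of the start in 5 of the 41 (12.2%: Psmb5, Psmb6, Psmc6, Psmd12 and Psmd9), beside 11.5% of all 27025 promoters. CCAAT on either strand was found in 14 of the 41 (34.1%, beside 37.5%). Of the 10 members that fell in muscle, only Psmb5 is among the 5 with the antioxidant element.

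Psmb2, a beta ring subunit with no cutting activity (chr4:126677630-126709714, plus strand), had 111.8, 107.9 and 107.7 TPM with vehicle and 91.1, 84.0 and 85.4 TPM with daily prednisone. It fell by 0.33 (SE 0.05, adjusted p = 0.00614), and its weekly libraries, at 100.0, 97.7 and 91.2 TPM, lay between the groups. Psmb4, another such subunit, had 156.8, 169.4 and 154.5 TPM with vehicle and 142.3, 141.8 and 129.6 TPM with daily prednisone, and fell by 0.22 (adjusted p = 0.0293). For Psmb4 the weekly libraries (138.3, 137.1 and 141.0 TPM) were as low as the daily ones. Transcripts annotated as protein coding held 64.0% to 74.7% of the Psmb4 signal in muscle.

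In the 19S base, Psmd4, which encodes a ubiquitin receptor, had 120.0, 118.6 and 119.1 TPM with vehicle and 102.1, 97.3 and 101.7 TPM with daily prednisone (log2 fold change -0.25, adjusted p = 0.00976). Psmd2, a scaffold that receives ubiquitin shuttle proteins, had 89.2, 97.2 and 89.6 TPM with vehicle and 79.2, 72.8 and 73.2 TPM with daily prednisone (-0.29, adjusted p = 0.0104). Psmd1, the other scaffold, is outside the rule for named genes and is given because it completes the 10: it had 58.9, 59.0 and 58.9 TPM with vehicle and 54.7, 48.2 and 50.6 TPM with daily prednisone (-0.20, adjusted p = 0.0374). None of the 3 genes overlapped between the groups. Among the 6 ATPases, Psmc4 had 70.9, 72.7 and 69.6 TPM with vehicle and 65.1, 62.7 and 62.2 TPM with daily prednisone (-0.16, adjusted p = 0.0322), and the other 5 had log2 fold changes of -0.01 to -0.15 and did not pass.

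In the lid, the scaffold subunit Psmd3 had 78.9, 79.4 and 76.3 TPM with vehicle and 67.8, 62.2 and 61.7 TPM with daily prednisone (-0.29, adjusted p = 0.00938). The remaining 7 lid genes did not pass, and the median of the 8 was -0.00. Psmd14 had 42.1, 46.4 and 44.3 TPM with vehicle and 51.0, 46.3 and 46.2 TPM with daily prednisone. Its log2 fold change of 0.11 did not pass as TPM, but reached 0.21 under TMM scaling (adjusted p = 0.0432) and 0.24 under quantile normalization (adjusted p = 0.0291). Psmd11 had a log2 fold change of 0.01.

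Of the regulators, Psme4 showed the largest fall of all members in muscle (chr11:30771726-30880361, plus strand). It had 38.0, 40.3 and 38.1 TPM with vehicle, 39.2, 33.2 and 35.9 TPM with weekly prednisone and 29.1, 30.4 and 28.6 TPM with daily prednisone. The daily libraries lay below all others, and the log2 fold change against vehicle was -0.39 (SE 0.07, adjusted p = 0.00742). With daily prednisone the muscle values of Psme4 still lay above those of adipose tissue, where its daily libraries held 17.9, 18.4 and 18.5 TPM. Psmf1 had 12.0, 11.7 and 11.3 TPM with vehicle and 9.48, 9.36 and 9.22 TPM with daily prednisone (-0.29, SE 0.06, adjusted p = 0.0155). The immunoproteasome genes overlapped between the vehicle and daily libraries: Psmb8 had 11.7, 9.62 and 10.2 TPM, Psmb9 8.07, 4.99 and 6.95 TPM and Psmb10 31.8, 27.5 and 30.2 TPM with daily prednisone. The log2 fold changes of these 3 were -0.11, -0.09 and -0.16. Psme1, Psme2 and Psme3 had 0.03, -0.15 and -0.24.

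**Figure D3:**
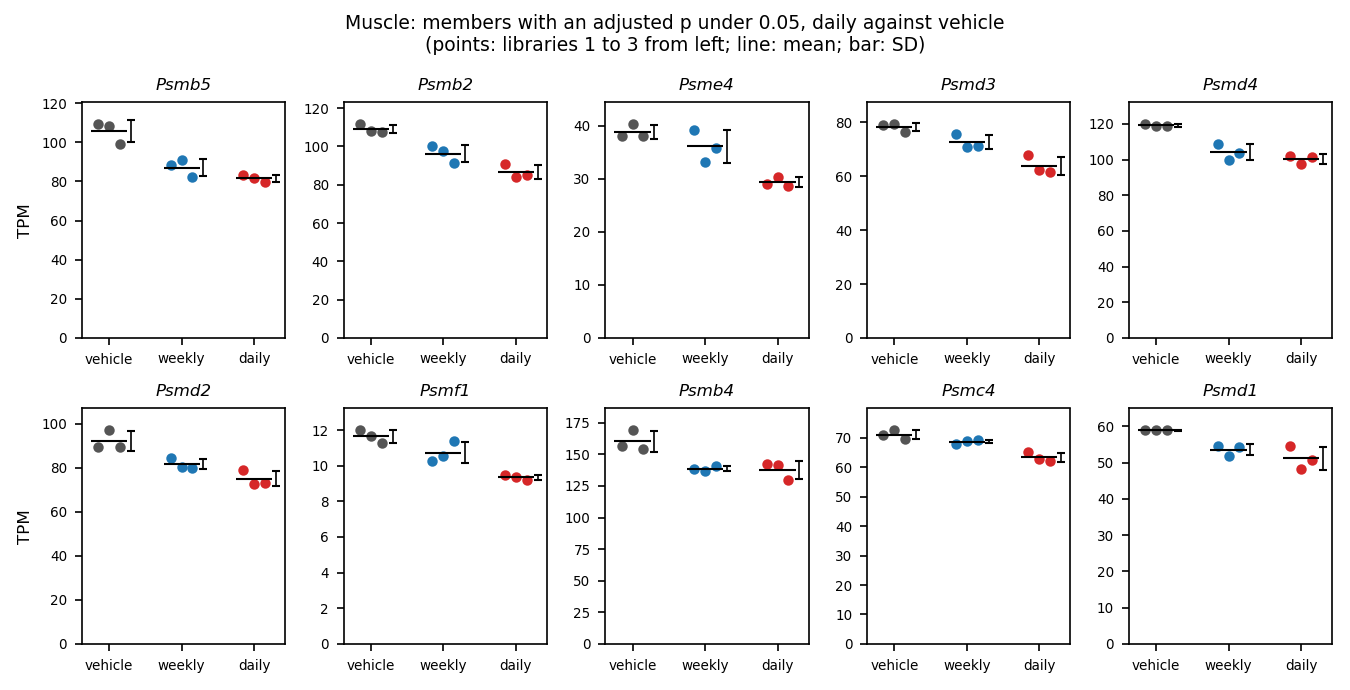
TPM of the 10 members with an adjusted p under 0.05 in muscle, daily against vehicle; points are libraries, lines means and bars SDs of 3, and each vertical axis starts at 0. Every daily point lies below every vehicle point in all 10 panels.

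The count of 10 depended on single libraries and on the scaling. For the counts with libraries left out or under quantile normalization, no share of all genes is given. These counts therefore do not show whether members lost calls more often than other genes. Leaving out each library in turn gave 4 to 12 members, and 4 without daily library 3, where Psmd3 (adjusted p = 0.0512), Psmd2 (0.0547), Psmf1 (0.0689), Psmb4 (0.119), Psmd1 (0.129) and Psmc4 (0.131) missed the threshold. Without vehicle library 1 the adjusted p-values were 0.0524 for Psmf1, 0.0586 for Psmb4, 0.0774 for Psmc4 and 0.0894 for Psmd1. Without vehicle library 2 those of Psmb4 (0.0911), Psmd1 (0.0934) and Psmc4 (0.0989) missed it. Psmc4 and Psmd1 also missed it without daily library 2 (0.0757 and 0.0957) and without vehicle library 3 (0.0596 and 0.0876). Psmb5, Psmb2, Psme4 and Psmd4 kept the call whichever single library was left out. Under TMM scaling 5 members were lower and 1 higher, beside 3.64% and 3.00% of all genes, and Psmd4 (adjusted p = 0.0682), Psmf1 (0.0905), Psmb4 (0.205), Psmd1 (0.205) and Psmc4 (0.379) missed the threshold. Quantile normalization left the falls of Psmb5, Psmb2 and Psme4, so that Psmd3 (adjusted p = 0.0531) and Psmd2 (0.0867) missed it there as well. Without the third library of each group, limma called 0 members, with 9 at an unadjusted p under 0.05, and the log2 fold changes of Psmb5, Psmb2 and Psme4 were then -0.40, -0.33 and -0.38. Of the 12 macrophage markers 3 passed as higher with daily prednisone and 0 as lower, beside 1.91% and 11.8% of all genes. Ctss, Lyz2 and Cd68 were higher by 1.75, 1.16 and 1.09 on the log2 scale, and the median of the 12 was 0.32. Their summed level was 249 to 364 TPM with vehicle and 400 to 617 TPM with daily prednisone, with none of the 12 at 0 TPM in a library. Of the 10 adipocyte markers Pnpla2 fell by 0.42, and their sums were 1651 to 2137 TPM with vehicle and 928 to 2096 TPM with daily prednisone. Of the 10 fibre markers Mylpf rose by 0.33 and Ckm fell by 0.21, and 0 of 6 endothelial markers passed. Their part in the falls was not tested.

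The genes that surround the proteasome were read in muscle from lists that hold no member. Of 17 transcription factors of proteasome genes and their processing factors, 7 were lower with daily prednisone and 0 higher, beside 11.8% and 1.91% of all genes, with a median log2 fold change of -0.21 beside -0.09 over all genes. The same shares of all genes stand beside the counts of the next 3 lists. Nfe2l1 itself had 217, 218 and 214 TPM with vehicle and 177, 176 and 174 TPM with daily prednisone (-0.30, SE 0.06, adjusted p = 0.0111). Foxo4, a forkhead factor (-0.40), and Nfyb, a subunit of the factor that binds CCAAT (-0.49), fell more, and Keap1, which holds Nfe2l2 in check, fell by 0.32. Nfyc, Mafg and the enzyme Ngly1, which frees Nfe2l1 for activation, were the other 3. Of 17 tested shuttle and extraction factors, which carry tagged proteins to the proteasome, 6 fell and 0 rose. Nploc4, a cofactor that extracts tagged proteins, fell by 0.42, and the shuttles Rad23b and Ubqln4 fell by 0.26 and 0.25. Of 12 tested assembly and docking factors with other names, Adrm1, a further ubiquitin receptor of the 19S base, fell by 0.28 and Zfand5, a proteasome-binding protein, by 0.24. Of 6 ubiquitin genes and E1 enzymes 1 rose and 1 fell, the latter being the ubiquitin gene Ubb (-0.24).

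Weekly prednisone in muscle left no member past the test. Limma called 0 of 47 members against vehicle, beside 0.049% of all genes, with a smallest adjusted p of 0.116. An unadjusted p under 0.05 was reached by 13 of the 47 members, beside 1891 of all 12246 genes. Of the 47 log2 fold changes, 42 were below 0, with a median of -0.10 beside -0.07 over all genes. For 17 members (36.2%, beside 19.3% of all genes) all weekly libraries lay below all vehicle libraries, and for 0 members (beside 3.75%) above. Psmb5 had the smallest p, with a log2 fold change of -0.28 (SE 0.06), followed by Psmd4 (-0.19), Psmb4 (-0.21), Psmb2 (-0.18) and Psmb6 (-0.17). In Psmb6 the weekly libraries (234.4, 235.6 and 228.1 TPM) lay below the vehicle ones. Psmb7, Psmb10 and Psme2 had -0.12, -0.21 and -0.27, Psmb8, Psme3, Psme4 and Psmf1 -0.16, -0.13, -0.10 and -0.11, and Psmb9, Psmc4, Psmd11, Psmd14 and Psme1 stood between -0.06 and 0.00. Macrophage markers summed to 260 to 268 TPM in weekly muscle.

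Weekly and daily prednisone were also compared with each other in muscle, since a gene that passes in one regimen and not in the other is not thereby shown to differ. Limma called 0 of 47 members, beside 1.77% of all genes. An unadjusted p under 0.05 was reached by 6 of the 47 members, beside 2130 of all 12246 genes. Psme4 came closest, higher with weekly prednisone by 0.28 (SE 0.07, adjusted p = 0.0677), and Psmd3 followed at 0.18 (adjusted p = 0.118). Over transcripts annotated as protein coding alone, 1 member, Psme4, passed. The weekly libraries lay above all daily ones for 7 members (beside 14.7% of all genes) and below them for 5 (beside 8.58%). Psmf1 was higher by 0.18 and Psmc4 by 0.12 with weekly prednisone, Psmd14 lower by 0.12, and Psmb5 and Psmb6 differed by 0.09 and -0.02. In the surrounding lists Foxo4 was higher with weekly than with daily prednisone, by 0.31.

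In adipose tissue, weekly prednisone was followed by falls in 4 of 48 members and by no rise. The 4 were the alpha ring genes Psma2 and Psma6, the beta ring gene Psmb3 and the PA28 gene Psme1. They made up 8.33% of the members, beside 1.72% of the 14150 genes tested that were lower and 5.72% that were higher. The median of all genes was above 0, at 0.13, and that of the members was -0.11, so that 46 of the 48 members lay below the median of all genes. TMM scaling moved the median of all genes to 0.00 and that of the members to -0.25, and then called 12 members, all lower (beside 4.65% of all genes that were lower under TMM). The weekly libraries lay below all vehicle libraries for 17 members (35.4%, beside 7.88% of all genes) and above them for 2 (beside 27.6%).

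Psmb3, a beta ring subunit with no cutting activity (chr11:97703399-97713500, plus strand), had 205.5, 204.0 and 205.2 TPM with vehicle and 154.6, 172.7 and 165.6 TPM with weekly prednisone. It fell by 0.32 (SE 0.06, adjusted p = 0.0201), and its daily libraries lay between, at 180.9, 193.2 and 182.1 TPM. Psma6 (chr12:55384222-55418454, plus strand) had 194.1, 192.0 and 183.8 TPM with vehicle and 152.9, 164.1 and 155.6 TPM with weekly prednisone (-0.27, SE 0.05, adjusted p = 0.0258). Psma6 is one of the alpha subunits that form the end rings of the barrel and the gate through which proteins enter. Psma2, another (chr13:14613240-14674236, plus strand), had 190.5, 183.0 and 193.3 TPM with vehicle and 151.7, 165.5 and 160.4 TPM with weekly prednisone (-0.25, SE 0.06, adjusted p = 0.0373). Psme1 had 181.9, 174.7 and 172.3 TPM with vehicle and 154.1, 137.2 and 149.7 TPM with weekly prednisone (-0.26, SE 0.07, adjusted p = 0.0443). In each of the 4 genes the weekly and vehicle libraries did not overlap.

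The promoters of Psma2, Psma6 and Psmb3, 3 of the 4 genes that fell, are shown because they share CCAAT, the motif bound by the factor NF-Y; that of Psme1 has no match in the same window. It is in capitals, and reads ATTGG where it lies on the other strand. As given above, the motif is common among all promoters.
Psma2: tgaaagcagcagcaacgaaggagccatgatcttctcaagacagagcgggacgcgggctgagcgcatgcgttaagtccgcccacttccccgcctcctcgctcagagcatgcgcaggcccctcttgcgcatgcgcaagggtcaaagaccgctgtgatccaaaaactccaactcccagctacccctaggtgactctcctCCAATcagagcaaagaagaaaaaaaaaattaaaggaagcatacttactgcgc
Psma6: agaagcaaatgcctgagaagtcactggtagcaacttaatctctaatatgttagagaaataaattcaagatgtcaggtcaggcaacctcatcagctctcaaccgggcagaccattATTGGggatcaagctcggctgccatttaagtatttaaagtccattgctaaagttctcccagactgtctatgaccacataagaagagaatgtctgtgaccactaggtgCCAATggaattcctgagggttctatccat
Psmb3: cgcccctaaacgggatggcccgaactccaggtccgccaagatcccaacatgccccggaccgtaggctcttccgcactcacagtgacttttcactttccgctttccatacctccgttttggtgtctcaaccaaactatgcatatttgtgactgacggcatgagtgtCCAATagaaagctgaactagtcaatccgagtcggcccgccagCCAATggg
These stretches are chr13:14612992-14613239, chr12:55383972-55384221 and chr11:97703184-97703398, all on the plus strand of GRCm38.p6. Nfya, a subunit of NF-Y and one of the transcription factors listed, rose with weekly prednisone in adipose tissue, from 15.9, 16.3 and 18.5 TPM to 23.3, 22.3 and 24.5 TPM (0.45, SE 0.11, adjusted p = 0.0409). A relation between this rise and the motif was not tested.

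The members that did not pass after weekly prednisone in adipose tissue had log2 fold changes of either sign. Psma7 was just outside the threshold, at -0.29 (adjusted p = 0.0502), and Psmd5, the base chaperone, had the lowest log2 fold change of all, at -0.48, with a larger error (SE 0.16, adjusted p = 0.0886). The cutting subunits Psmb5, Psmb6 and Psmb7 had -0.23, -0.07 and -0.10. Psmb8 had 86.3, 57.6 and 71.7 TPM in the weekly libraries, Psmb9 59.7, 41.3 and 49.6 TPM and Psmb10 81.8, 118.8 and 85.9 TPM. These 3 immunoproteasome genes varied more, relative to their means, within the weekly group than any of the 4 genes that fell, with weekly library 2 lowest for Psmb8 and Psmb9 and highest for Psmb10. Their log2 fold changes were -0.19, 0.10 and -0.20. Psme2 had -0.16, Psme3 0.12, Psme4 0.19, Psmf1 -0.11, Psmd14 -0.08, Psmd11 -0.01 and Psmc4 0.01, and the retrocopy Psme2b had 0.69 from low values.

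**Figure D4:**
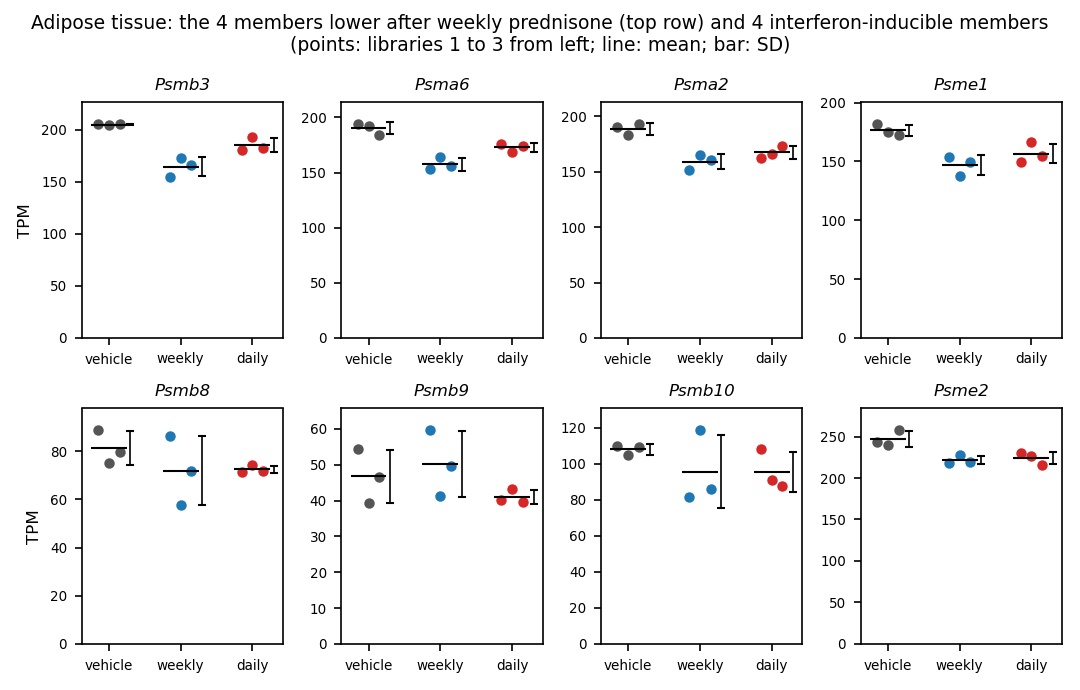
TPM in adipose tissue of the 4 members with an adjusted p under 0.05, weekly against vehicle (top row), and of 4 interferon-inducible members (bottom row); points are libraries, lines means and bars SDs of 3, and each vertical axis starts at 0. In the top row every weekly point lies below every vehicle point, while Psmb8, Psmb9 and Psmb10 overlap between these groups.

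The adipose calls rested on few libraries. No share of all genes is given for the counts with libraries left out. These counts therefore do not show whether members lost calls more often than other genes. Without weekly library 3 or without vehicle library 3, limma called 0 members, with 9 at an unadjusted p under 0.05 in each case, and the adjusted p of Psmb3 was 0.0703 and 0.0772. It called 1 member (Psmb3) without weekly library 1, vehicle library 1 or vehicle library 2, and 6 without weekly library 2. Psma6 had adjusted p-values of 0.0559 to 0.0933 and Psma2 of 0.0611 to 0.120 where they missed it, and Psme1 missed it whichever of the 6 libraries was left out, at 0.0593 to 0.109. When the third library was dropped from every group, 0 members passed, with 5 at an unadjusted p under 0.05. Weekly libraries 2 and 3 and daily library 2 are those with the higher muscle fibre markers; without them, when the lone weekly library is assumed to vary like the others, 5 members passed (Psmb3, Psma7, Psma3, Psma6 and Psma2), all lower. Single genes of the marker lists passed as well, beside 5.72% of all genes that were higher and 1.72% that were lower. Cd163, Itgam, Mrc1 and Lyz2 of the 12 macrophage markers rose. The summed levels of the 12 overlapped (2238 to 3025 TPM with vehicle, 2844 to 3376 TPM with weekly prednisone). Of the endothelial markers Tek rose, with sums of 224 to 237 TPM and 257 to 357 TPM. Of the 10 lymphocyte markers tested Cd3g fell by 0.68, and 0 of 10 adipocyte markers passed. Their part in the falls was not tested.

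Around the proteasome, weekly prednisone was followed in adipose tissue by changes in genes of 3 lists, beside 5.72% of all genes that were higher and 1.72% that were lower. Of the 17 transcription and processing factors 3 rose: Nfya, given above, Bach1, a repressor at antioxidant elements (0.56), and Mafk, a small Maf partner (0.40). Uchl5, a ubiquitin-cutting enzyme docked on the 19S base, rose by 0.44 as the only one of 12 tested assembly and docking factors, 1 of the 6 ubiquitin and E1 genes fell, and 0 of 17 shuttle factors passed.

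Daily prednisone in adipose tissue left no member past the test. Limma called 0 of 48 members, beside 0.00707% of all genes, with a smallest adjusted p of 0.402. An unadjusted p under 0.05 was reached by 9 of the 48 members, beside 1305 of all 14150 genes. The members' median was -0.08 beside 0.01 over all genes, and 41 of 48 were below 0. The daily libraries lay below all vehicle libraries for 14 members (29.2%, beside 7.93% of all genes) and above them for 2 (beside 7.66%). Psma2 had the smallest p (162.7, 166.4 and 173.5 TPM with daily prednisone, -0.17), followed by Psmb2 (-0.18) and Psme1 (149.8, 166.2 and 154.2 TPM, -0.17). Psmb8, Psmb9 and Psmb10 had -0.16, -0.18 and -0.18, Psme2 -0.14, Psmf1 -0.15, Psmb5 -0.14, Psmb6 -0.09, Psmb7 -0.09, Psmd14 -0.07, Psme3 -0.07, and Psme4, Psmc4 and Psmd11 -0.01 to 0.02. This comparison and the weekly one share their vehicle libraries.

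Between weekly and daily prednisone in adipose tissue limma called 0 of 48 members, beside 0.311% of all genes. An unadjusted p under 0.05 was reached by 3 of the 48 members, beside 2242 of all 14150 genes. Psmb3 had the smallest p, lower with weekly prednisone by 0.17 (adjusted p = 0.236). The members' median was -0.02 beside 0.12 over all genes, and the weekly libraries lay above all daily ones for 1 member (beside 22.5% of all genes) and below them for 5 (beside 3.05%). Psmb9 had 0.27, Psme4 and Psme3 0.18 each, and Psme1 -0.09.

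Whether a regimen acted unequally on the members of the 2 tissues was tested by the interaction of tissue and regimen within mice. Limma called 0 of 47 members for daily against vehicle (beside 0.0596% of all genes), 0 for weekly against vehicle (beside 2.56%) and 0 for weekly against daily (beside 0.792%). An unadjusted p under 0.05 was reached by 5, 4 and 2 of the 47 members. Of all 11737 genes, 1660, 3245 and 1834 reached it. Psme4 had the smallest p for daily prednisone, where its log2 fold change was lower in muscle than in adipose tissue by 0.40 (difference -0.40, SE 0.10, adjusted p = 0.142). Psma6 had the smallest p for weekly prednisone (0.24, SE 0.07, adjusted p = 0.0900). So the falls of Psmb5, Psmb2 and Psme4 in muscle and of Psmb3, Psma6 and Psma2 in adipose tissue were not shown to belong to one tissue.

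The balance between immunoproteasome and constitutive subunits was read as a ratio of TPM within each library. Psmb8 stood at 9.22% to 14% of Psmb5 in the muscle libraries and at 67.2% to 99.5% in those of adipose tissue. Psmb9 stood at 2.14% to 4.16% of Psmb6 in the former and at 17% to 24.8% in the latter, and Psmb10 at 13.5% to 16.0% of Psmb7 and at 48.1% to 77.6%. None of the 3 ratios overlapped between the tissues. Within a tissue the regimens were compared by 18 two-sided exact permutation tests, for which 0.1 is the smallest p that 3 against 3 libraries allow. The Psmb8 to Psmb5 ratio in muscle was 9.22%, 11.5% and 11.7% with vehicle and 11.8% to 14% with daily prednisone, so that these groups did not overlap (exact p = 0.1, adjusted p = 0.9). Of its 2 genes, Psmb5 passed as lower, with means of 105.6 TPM with vehicle and 81.53 TPM with daily prednisone. Psmb8, with means of 11.4 and 10.5 TPM, did not pass. Psmb9 to Psmb6 in adipose tissue was 19.4% to 24.8% with weekly and 18.5% to 19.2% with daily prednisone (exact p = 0.1, adjusted p = 0.9). The other 16 tests gave p-values of 0.3 to 1.0.

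**Figure D5:**
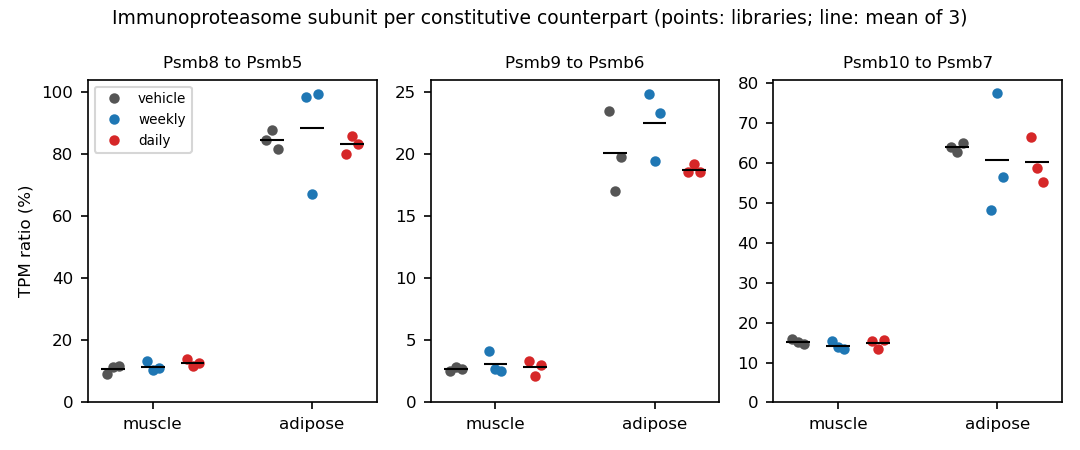
TPM of each immunoproteasome subunit as a percentage of its constitutive counterpart, by tissue and regimen; points are libraries and lines means of 3. For all 3 pairs every adipose library lies above every muscle library, and within muscle the ratio of Psmb8 to Psmb5 runs only from 9.22% to 14%.

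Gene values are sums over transcripts, and in a few members much of the signal came from transcripts that make no subunit. The table held 239 transcripts of the members, of which 236 were matched to GENCODE vM21 and 97 are annotated there as protein coding. In 40 members the median share of coding transcripts over the libraries was above 90% in both tissues. Single libraries of some of these members lay lower, such as 81.46% for Psmd5 in adipose tissue. The leading transcript was annotated for nonsense-mediated decay in 2 members, Psma3 and Psmd13, whose coding transcripts had median shares of 33.9% and 60.4% over the muscle libraries and 36.5% and 60.1% over the adipose ones. For Psme2 the medians were 86.2% and 81.8%. These shares were not constant across regimens. In muscle the mean coding share of Psma3 was 25.59% with vehicle, 37.05% with weekly and 42.7% with daily prednisone. In adipose tissue that of Psme2 was 89.45%, 75.02% and 80.88% in the same order. The differences in share were not tested. With coding transcripts alone 10 members were lower in muscle after daily prednisone, beside 15.5% of all genes; Psmb6 was among them and Psmb4 was not. In adipose tissue 9 were lower after weekly prednisone, beside 2.55% of all genes (Psme2, Psmb3, Psma6, Psma2, Psma7, Psmb10, Psme1, Psmd8 and Psmb1).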

How the data were processed

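RNA was sequenced from polyadenylated transcripts with a stranded kit, per the labels' protocols. The authors' deposited table gives TPM per transcript for all 18 libraries; Trimmomatic, HISAT2, kallisto and the build mm10 are named in the submitters' processing notes, without versions, roles or the annotation used. Replicates are separate mice, per the labels. TPM of 105129 transcripts was summed per gene symbol. Genes that reached 1 TPM in 3 or more libraries of either tissue were fitted in that tissue with limma 3.58.1 (R 4.3.3) on log2(TPM + 1), with all 9 libraries of a tissue, a trended prior and no replicate term. Tissues were compared by differences within mice, since each mouse gave both tissues, per the labels; residuals of a mouse's tissues correlated by -0.10 to 0.15 (median 0.05). A gene was called at a Benjamini-Hochberg adjusted p under 0.05. The fitting code was tested on simulated data. Positions and transcript classes come from GENCODE vM21, promoters from RefSeq (GRCm38.p6).

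The members and the lists were chosen with earlier results of these data known, so their counts are descriptions. Named are up to 8 called members per direction and comparison, a panel (Psmb5 to Psmb10, Psme1 to Psme4, Psmf1, Psmd14, Psmd11 and Psmc4), the 6 largest called tissue differences each way, members at the filter, and called genes of the lists (at most 4 by smallest p, others by name or count). Some called genes of the lists are not reported here. The lists are markers of muscle fibres, adipocytes, macrophages, lymphocytes and endothelium, and genes of ubiquitin and E1, proteasome transcription factors, assembly and docking, shuttles, atrophy ligases, MHC class I and interferon response. Other scalings, pseudocounts, filters, priors, transcript sets and left-out libraries were tried.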

Additional observations from a re-analysis of the deposited data

How the results depend on the processing

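For 173 named member values there were 3282 alternative values. Of these, 3058 stayed on their side of the threshold and kept their direction or, without a call, changed sign by less than 1 SE. Another 92 changed sign by 1 SE or more without a call under either setting. Sign changes without a call numbered 232 in all. Further, 99 lost a call, 13 gained one and 20 turned to the other direction with a call under at least 1 setting. The 20 were muscle against adipose values in vehicle mice under TMM scaling across both tissues, chosen after seeing the data, which called 41 members (32 higher, 9 lower) in place of 37. They became 0.17 for Psma1, 0.27 for Psma2, 0.46 for Psma4, 0.33 for Psma5, 0.47 for Psma6, 0.60 for Psma7, 0.53 for Psmb1, 0.41 for Psmb2, 0.71 for Psmb3, 0.84 for Psmb4, 0.66 for Psmc1, 0.68 for Psmc4, 0.13 for Psmd13, 0.038 for Psmd14, 0.85 for Psmd2, 0.62 for Psmd4, 0.81 for Psmd8, 0.020 for Psme3, 0.24 for Psmg3 and 0.40 for Psmg4. For daily prednisone in muscle the count of 10 became 6 under TMM scaling (1 higher, 5 lower), 4 under quantile normalization (1 higher, 3 lower), 4 to 12 when single libraries were left out and 0 without the third library of each group. For weekly prednisone in adipose tissue the count of 4 became 12 under TMM scaling, 2 under quantile normalization, 2 with no filter, 1 with the 2 groups compared alone, 0 to 6 when single libraries were left out, 0 without the third library of each group and 9 with protein-coding transcripts only. In muscle, weekly against daily, coding transcripts gave 1 member in place of 0, and the log2 ratio of Psmb10 to Psmb7 moved from -0.10 to 0.16 (weekly against vehicle) and from -0.06 to 0.27 (weekly against daily). Except for TMM scaling and protein-coding transcripts, the share of all genes called under these settings is not given. Where no cause is given by the setting itself, the cause was not tested.

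Replicate numbers did not pair the samples: residuals of libraries with the same number correlated by -0.12 to 0.11 in muscle and -0.06 to 0.19 in adipose tissue. With the replicate number as a block, 2 members (Psmb3 and Psma6) in place of 4 were called for weekly prednisone in adipose tissue, and 10 for daily prednisone in muscle, where Psme3 took the place of Psmc4; without the mouse as a block 40 members differed between tissues. TPM gives no depth, so no counting error could be set beside any value.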

Other observations

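Lists of genes upstream and downstream of the proteasome gave values that no comparison above holds. In muscle, Trim63, the ubiquitin ligase of fibre proteins, had 133, 145 and 137 TPM with vehicle, 188, 184 and 188 TPM with weekly prednisone and 204, 184 and 188 TPM with daily prednisone. It was higher in both regimens, by 0.43 (adjusted p = 0.0287) and 0.47 (adjusted p = 0.0021) on the log2 scale. In the same libraries no proteasome member passed as higher on the TPM scale. Under TMM scaling and quantile normalization Psmd14 did pass as higher with daily prednisone. Of the 14 atrophy ligases Trim63 was the only one that rose with daily prednisone (percentage of all genes higher, 1.91%). Fbxo31 fell by 0.59, Fbxo21 by 0.31 and Ubr2 by 0.27 (percentage of all genes lower, 11.8%). Fbxo31, which marks proteins of the cell cycle, had 50.8, 57.3 and 51.9 TPM with vehicle, 53.1, 49.4 and 47.5 TPM with weekly prednisone and 34.7, 36.0 and 34.1 TPM with daily prednisone, and was higher with weekly than with daily prednisone by 0.50 (adjusted p = 0.00659). In adipose tissue 0 of the 12 ligases tested passed in any comparison of regimens.

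Peptides cut by the proteasome are loaded on MHC class I molecules in the endoplasmic reticulum, and 2 of the 11 genes of that list rose in each tissue, after different regimens (beside 1.91% of all genes in muscle with daily and 5.72% in adipose tissue with weekly prednisone). Pdia3 and Calr, chaperones of the loading complex that also serve general folding, rose in muscle with daily prednisone (0.43 and 0.21) and in adipose tissue with weekly prednisone (0.36 and 0.31), and the genes of the transporter and of the MHC chains did not pass. Of the interferon response genes, Irf7 and Ifit1 rose (0.54 and 0.46) and Irgm2 fell by 0.34 in muscle with daily prednisone, while with weekly prednisone Irgm2 fell by 0.65 (5.92, 6.29 and 5.72 TPM against 3.61, 3.32 and 3.45 TPM). In adipose tissue Stat2 rose with weekly prednisone (0.51). The member genes of that list, Psmb8 and Psmb9, passed in no comparison of regimens.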
